A study of Mus musculus with 30 samples.

Results

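The 10 genes described here are Zfp42, Klf2, Klf4, Klf5, Esrrb, Tbx3, Tfcp2l1, Nr0b1, Prdm14 and Dppa3, which mark the naive state of pluripotency, the state of the early epiblast and of mouse embryonic stem cells. They were chosen by name, and all 10 are among the 29555 genes of both deposited gene tables. Within 10 kb of them lay 51 of the 158917 peaks of the table of endoderm and stem cells and 56 of the 181059 peaks of the table of stem cells alone. The study measured RNA and chromatin accessibility (ATAC-seq) in epiblast stem cells (EpiSCs), which are primed pluripotent cells of the later epiblast, and in definitive endoderm (DE) made from them. EpiSCs of every group grew without further treatment on feeder cells in N2B27-based medium with Fgf2, Activin A and the Wnt inhibitor NVP-TNKS656, and colonies were lifted with collagenase to leave the feeders behind. DE came from C57BL/6 (B6) EpiSCs given CHIR99201, an agonist of the Wnt pathway, with Activin A and later Activin A with the BMP inhibitor LDN193189, after which cells with CXCR4 on their surface were taken with magnetic beads. RNA came from 5 B6, 3 PWK/PhJ (PWK), 3 B6.129 F1 (F1) and 1 DBA/2J (DBA) EpiSC libraries and from 4 B6 DE libraries, and ATAC-seq from 4 B6, 2 PWK and 1 DBA EpiSC and 4 B6 DE libraries. PWK was derived from wild mice, B6 and DBA are classical inbred strains, and F1 is a cross of B6 with 129.

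In naive cells these transcription factors and cofactors form a connected network. Esrrb is an orphan nuclear receptor, Tfcp2l1 and Klf4 act downstream of LIF and STAT3, and Klf2, Klf4 and Klf5 are zinc finger factors with overlapping roles. Tbx3 is a T-box factor that acts in the same network and also in early endoderm. Nr0b1 (Dax1) is a nuclear receptor without a classical DNA-binding domain, and Prdm14 represses FGF signalling and DNA methylation in naive and germ cells. Dppa3 (Stella) protects the maternal genome in the zygote from loss of methylation, and Zfp42 (Rex1) is the common reporter gene of the naive state. When the epiblast becomes primed most of this network is silenced, and Klf4, Klf5, Klf2 and Tbx3 are also used by other tissues such as fibroblasts, gut and endothelium.

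Promoters of 6 of the 10 genes are in the RefSeq table of assembly GRCm38.p6, each as 250 bases before and 50 bases after the start. The 4 below are shown because one belongs to a gene with almost no RNA, one to a gene with high accessibility at its start, and the others to the pair of genes that held the largest shifts in accessibility among the genes with a RefSeq start. Capitals mark matches to the motifs searched on both strands, and positions count from 0 at the start base. The strand beside each gene name is that of the gene, while the strand of a motif is relative to the printed sequence. A position is that of the leftmost printed base of a match.
Zfp42, minus strand, chr8:43306960-43307259: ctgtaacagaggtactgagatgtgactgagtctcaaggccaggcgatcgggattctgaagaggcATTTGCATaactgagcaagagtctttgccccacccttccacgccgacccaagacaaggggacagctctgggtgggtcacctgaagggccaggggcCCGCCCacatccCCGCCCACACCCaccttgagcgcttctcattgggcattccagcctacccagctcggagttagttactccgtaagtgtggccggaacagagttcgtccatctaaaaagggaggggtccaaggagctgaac
Klf2, plus strand, chr8:72318812-72319111: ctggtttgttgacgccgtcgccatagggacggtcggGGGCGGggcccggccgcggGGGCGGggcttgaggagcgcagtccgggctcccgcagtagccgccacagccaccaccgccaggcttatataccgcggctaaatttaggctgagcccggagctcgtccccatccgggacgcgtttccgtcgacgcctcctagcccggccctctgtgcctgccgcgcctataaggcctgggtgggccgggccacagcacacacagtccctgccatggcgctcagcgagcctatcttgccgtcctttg
Tfcp2l1, plus strand, chr1:118627695-118627994: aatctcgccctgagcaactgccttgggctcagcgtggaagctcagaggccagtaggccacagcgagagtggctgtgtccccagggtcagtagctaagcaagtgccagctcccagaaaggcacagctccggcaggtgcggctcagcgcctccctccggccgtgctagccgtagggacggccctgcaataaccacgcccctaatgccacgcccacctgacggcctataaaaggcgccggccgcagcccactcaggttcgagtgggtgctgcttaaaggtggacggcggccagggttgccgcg
Esrrb, second start, plus strand, chr12:86421394-86421693: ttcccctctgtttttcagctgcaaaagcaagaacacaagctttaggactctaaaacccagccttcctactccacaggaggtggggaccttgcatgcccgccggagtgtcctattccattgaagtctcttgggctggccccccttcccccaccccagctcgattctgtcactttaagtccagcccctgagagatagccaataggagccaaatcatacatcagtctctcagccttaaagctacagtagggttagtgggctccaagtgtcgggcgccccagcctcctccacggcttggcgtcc
The Zfp42 promoter held an octamer (ATGCAAAT, minus strand, at -186), the motif of POU factors, found in 1.74% of all 32851 promoters of that length. It also held a KLF site (GGGTGTGG, minus strand, at -75), found in 3.56% of promoters, and 2 GC boxes (GGGCGG, minus strand, at -91 and -79), found in 35.7%, of which the latter overlaps the KLF site. The Klf2 promoter held 2 GC boxes, at -214 and -195, and 32 CpG dinucleotides against a median of 7 over all promoters. The Klf4 promoter held 4 GC boxes and 40 CpG, and the upstream Esrrb promoter held a STAT site (TTCNNNGAA, at -178), which 8.30% of promoters carry. None of these windows held the Esrrb half-site (TNAAGGTCA, 1.28% of promoters), the T-box site (AGGTGTGA, 1.28%) or the site named for TFCP2L1 (3.44%), and the windows of Tfcp2l1, Nr0b1 and the second Esrrb start held no match to any of the 7 motifs. Matches of letters describe the windows only. Klf5, Tbx3, Prdm14 and Dppa3 were not matched in that table.

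Depth set what could be seen. RNA libraries held between 22829536 and 66563933 counts, with DE replicates 4 and 51 the deepest, and ATAC libraries between 3751526 and 9571127 counts in peaks. The labels of both cell states held against general pluripotency and endoderm markers, while the sum of a list of primed markers went the other way. The summed CPM (counts relative to library size, which was scaled by TMM, a trimmed mean of ratios between libraries) of 6 general pluripotency genes was 2470 to 3500 in B6 EpiSCs and 252 to 421 in DE, and that of 8 endoderm genes was 158 to 363 and 6320 to 12900. The endoderm list includes Cxcr4 (means of 13.9 CPM in EpiSCs and 72.2 CPM in DE), by whose protein the DE cells were selected. The sum of 5 primed EpiSC genes was 1620 to 2660 CPM in B6 EpiSCs and 2990 to 3910 CPM in DE. Within it Fgf5 and Otx2 had higher means in DE, and Dnmt3b, Pou3f1 and Zic2 lower means. A list of 12 fibroblast genes, markers of feeder cells, ranged in B6 EpiSCs from 79.8 CPM in replicate 1 to 3000 CPM in replicate 51, with no gene of it at 0. In DE it ranged from 189 to 377 CPM, and up to 2 genes were at 0. Features of chromosome 8, which holds Zfp42 and Klf2, were shifted in DE replicate 51 by a median log2 value of 0.47 in RNA and 0.48 in ATAC. Each DE library was set against the mean of the remaining DE libraries and centred on its median over all features. The values of DE replicates 2, 4 and 44, whose reference included replicate 51, were -0.11 to -0.17. EpiSC libraries were not examined for such a shift. The labels do not say whether replicates are separate cell lines, so p-values measure the spread between these samples. In bulk samples, fewer cells of a type and less RNA per cell cannot be told apart.

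Naive genes fell into those with RNA in every EpiSC library and those with almost none. Klf2, Klf4, Klf5, Esrrb, Tbx3 and Tfcp2l1 had reads in every library of every group. Zfp42 (chr8:43295067-43307009) had 0 counts in all 5 B6, 3 PWK and 3 F1 EpiSC libraries and in all 4 DE libraries, and 1 count in the DBA library. The 0 counts among 134414113 in B6 EpiSCs allow a level of up to 0.0223 CPM, from counting error alone. Prdm14 (chr1:13113428-13127163) was below detection in B6, F1 and DBA EpiSCs and in DE. Dppa3 (chr6:122626424-122630271) had 2 counts in all over the 5 B6 EpiSC libraries, 1 over the F1 libraries, 1 in the DBA library and 0 in PWK and in DE. Nr0b1 (chrX:86191775-86195947) had 0 to 3 counts in every EpiSC library of every strain. Levels of different genes are not compared, since exon lengths were not used.

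**Figure D1:**
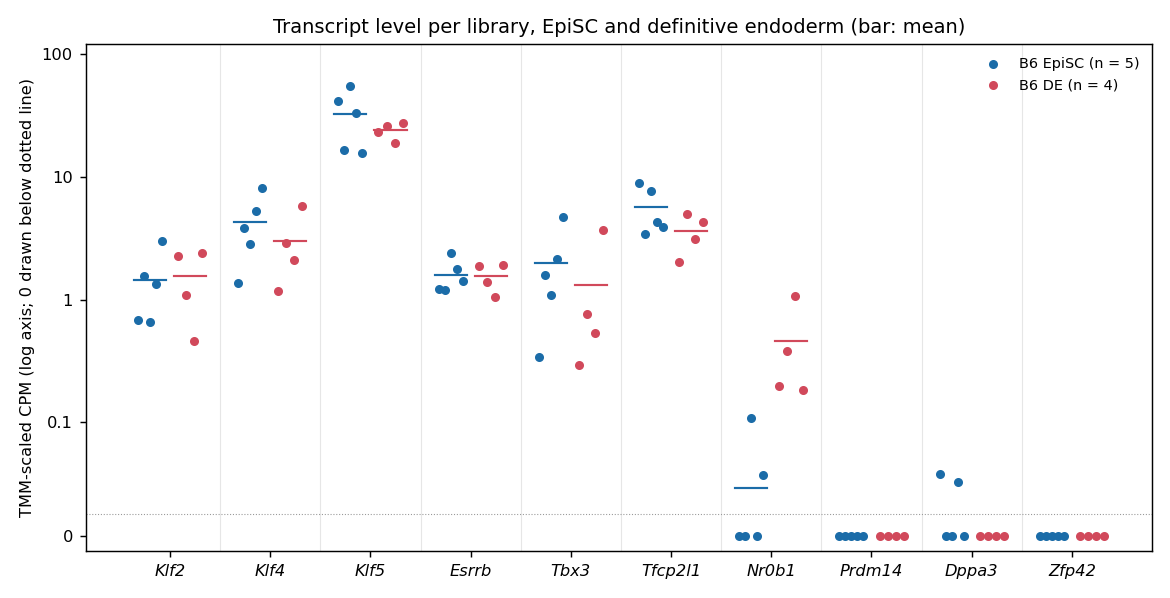
RNA level of each naive gene in TMM-scaled CPM (log axis, with 0 drawn below the dotted line) in 5 B6 EpiSC (blue) and 4 B6 DE libraries (red), 1 point a library, with bars at means above the dotted line. Points of both states overlap for Klf2 to Tfcp2l1, all DE points of Nr0b1 lie above the EpiSC points, and Zfp42 and Prdm14 are at 0 throughout.

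Differentiation of B6 EpiSCs to DE was the first contrast. None of the 6 naive genes with enough reads to be tested rose or fell, while 62% of the 14085 genes tested were called (31.5% higher, 30.6% lower; edgeR quasi-likelihood test, Benjamini-Hochberg adjusted p under 0.05). Their adjusted p-values ran from 0.203 to 0.971, and DESeq2 called none of them either. At an unadjusted p under 0.05 the count was also 0. Their log2 changes lay between -0.63 and 0.13, with a median change of -0.02 over all genes tested. The intervals of several are wide enough to hold a change of 2-fold or more. The general pluripotency genes moved otherwise: all 6 fell, for example Pou5f1 from a mean of 1130 to 12.5 CPM and Sox2 from 65.9 to 0.946 CPM.

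Among the KLF factors, Klf5 (ENSMUSG00000005148, chr14:99298691-99313412), which acts in epithelia as well as in the inner cell mass, had 41.6, 16.4, 54.7, 32.9 and 15.5 CPM in B6 EpiSC replicates 1, 2, 4, 44 and 51. In DE replicates 2, 4, 44 and 51 it had 23.2, 25.9, 18.7 and 27.2 CPM. The DE libraries lay inside the wide range of the EpiSC libraries, and the log2 change of -0.42 (SE 0.36, 95% interval -1.13 to 0.29) was not called, at an adjusted p of 0.336. Klf4 (ENSMUSG00000003032, chr4:55527137-55532475), one of the factors used to reprogram fibroblasts, had 1.37, 3.85, 2.84, 5.27 and 8.05 CPM in the EpiSC replicates in the same order and 1.18, 2.89, 2.08 and 5.75 CPM in DE. The groups overlapped, and the log2 change was -0.51 (SE 0.57, interval -1.63 to 0.62). Klf2 (ENSMUSG00000055148, chr8:72319062-72321654), known from endothelium and from the naive network, had 0.685, 1.54, 0.655, 1.34 and 2.97 CPM in EpiSCs and 2.26, 1.08, 0.462 and 2.39 CPM in DE. Its change of 0.13 (SE 0.63, interval -1.10 to 1.36) had no fixed sign, and without DE replicate 51, the DE library with the chromosome 8 shift, it was -0.15.

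Esrrb (ENSMUSG00000021255, chr12:86361117-86521628), the orphan receptor, had 1.22, 1.19, 2.40, 1.76 and 1.41 CPM in EpiSC replicates 1, 2, 4, 44 and 51 and 1.87, 1.40, 1.04 and 1.90 CPM in DE replicates 2, 4, 44 and 51. The groups overlapped, and the log2 change was -0.02 (SE 0.41, interval -0.82 to 0.78). Tfcp2l1 (ENSMUSG00000026380, chr1:118627923-118685168) had 8.94, 3.39, 7.68, 4.23 and 3.86 CPM in EpiSCs and 2.01, 4.97, 3.12 and 4.24 CPM in DE. Its mean was lower in DE, 3.58 CPM ± 1.29 (SD, n = 4) against 5.62 CPM ± 2.51 (SD, n = 5), but EpiSC replicates 2, 44 and 51 lay within the DE range. The change of -0.63 (SE 0.41, interval -1.43 to 0.17, adjusted p 0.203) was the closest of the 6 to a call. Tbx3 (ENSMUSG00000018604, chr5:119670534-119684724) had 0.342, 1.58, 1.09, 2.15 and 4.68 CPM in EpiSCs and 0.295, 0.767, 0.539 and 3.67 CPM in DE. In DE it was high in replicate 51 alone, and its log2 change of -0.55 (SE 0.85) became -1.83 without that library and 0.053 without EpiSC replicate 51, with no call in either case. Antisense and neighbouring genes overlap Esrrb (Gm40483), Tbx3 (Tbx3os1) and Tfcp2l1 (LOC115487679), and since strand use in counting is not given in the sources used here, their reads cannot be told apart.

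Nr0b1 (ENSMUSG00000025056) was the naive gene whose RNA differed between the states without overlap. It had 0, 0, 3, 0 and 1 counts in EpiSC replicates 1, 2, 4, 44 and 51 and 4, 23, 28 and 12 counts in DE replicates 2, 4, 44 and 51. Every DE library exceeded every EpiSC library, as 55.5% of the genes tested did in one direction or the other. As summed counts, 67 among 174799584 in DE stood against 4 among 134414113 in EpiSCs, a ratio of 12.9 with an exact 95% counting interval of 4.8 to 48.6. Such an interval holds counting error alone and leaves out the spread between libraries. EpiSC replicate 4 held 3 of those 4 counts, and without it the ratio was 41.2 with an interval from 7.14 to 1650, while leaving out any other library gave 8.77 to 17.1. The filter on low counts removed it from the main test, and without that filter the adjusted p of edgeR's test was 0.0181 over 20588 genes. The level in DE stayed low, at 0.460 CPM ± 0.421 (SD, n = 4), and was highest in replicate 44 with 1.08 CPM. Of 8 markers of primordial germ cells, a cell type that also carries Nr0b1, 5 were tested. Of these, 3 were higher (Prdm1, Tfap2c and Kit) and 1 lower in DE (Itgb3, 34 to 0.992 CPM), beside 62% of all genes called. Dnd1 was not called. Nanos3 and Ddx4 were not tested, with means of 0.0684 and 0.24 CPM in DE and 0.0791 and 0.31 CPM in EpiSCs. Dazl was at 0 in every library. The summed CPM of the 8 markers was 262 to 861 in DE and 51.4 to 101 in EpiSCs, with Kit means of 511 and 33.4 CPM. The part of these markers in the Nr0b1 result was not tested.

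Called genes of the related lists lay in both directions, and their counts are to be read beside the 62% of all genes called. These lists were chosen with earlier results of the same data known. Of 20 other genes of the naive network, 14 were tested, 4 were higher and 6 lower in DE, with a median log2 change of -0.24. Fgf4, the growth factor that drives exit from the naive state, fell from 17.9 to 0.0983 CPM, Gbx2 from 3.18 to 0.196 CPM, and Dppa2 and Dppa4, partner genes expressed in pluripotent cells, from 0.812 and 0.757 CPM to 0 CPM in DE. Of 8 genes of the LIF and STAT3 pathway, 5 were lower and 1 was higher. The log2 change was -3.08 (SE 0.58) for the ligand Lif, -2.48 (SE 0.93) for the kinase gene Pim1 and -1.62 (SE 0.32) for the shared receptor subunit Il6st, and Pim3 rose by 1.30 (SE 0.20).

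Of 26 paralogs of the naive genes 21 were tested, 4 were higher and 9 lower in DE, with a median of 0.00, a called share near the 62% of all genes. Tbx2, the closest relative of Tbx3, rose from 0.652 to 12.7 CPM (log2 change 4.30, SE 0.65). Ubp1, of the Tfcp2l1 family, rose from 0.331 to 67.9 CPM, and Prdm1, a germ cell and endoderm relative of Prdm14, from 6.15 to 105 CPM. Ubp1 also varied among EpiSCs, with means of 14.9 CPM in F1, 0.338 CPM in B6 and 0 CPM in PWK, without a call against B6. Klf13 fell from 113 to 21.9 CPM (log2 change -2.34, SE 0.27). Of 14 genes of the formative and primed states 4 were higher and 7 lower, with a median of -1.34, and here Fgf5 rose by 2.91 (SE 0.17) and Car4 by 4.57 (SE 0.62), while the log2 change was -3.88 (SE 0.37) for Pou3f1 and -3.83 (SE 0.24) for Zic2.

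Many peaks near the naive genes changed in accessibility. Of the 51 nearby peaks, 40 had enough counts to be tested, 13 were higher and 11 lower in DE and 16 were not called, at a share close to the 57.6% of 113870 peaks called in all (32.6% higher, 25% lower). The median log2 change of the 40 peaks was 0.10, and that of all peaks was -0.01. By gene, the higher peaks were 8 of 13 at Esrrb, 2 of 3 at Prdm14, 2 of 7 at Tfcp2l1 and 1 of 5 at Klf2. The lower peaks were 3 of 4 at Tbx3, 2 at Esrrb and 1 each at Zfp42, Dppa3, Klf2, Klf4, Klf5 and Tfcp2l1. Nr0b1 had no peak within 10 kb in this table. Peak positions are those of the deposited tables (mm10), which do not say whether starts count from 0 or 1.

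**Figure D2:**
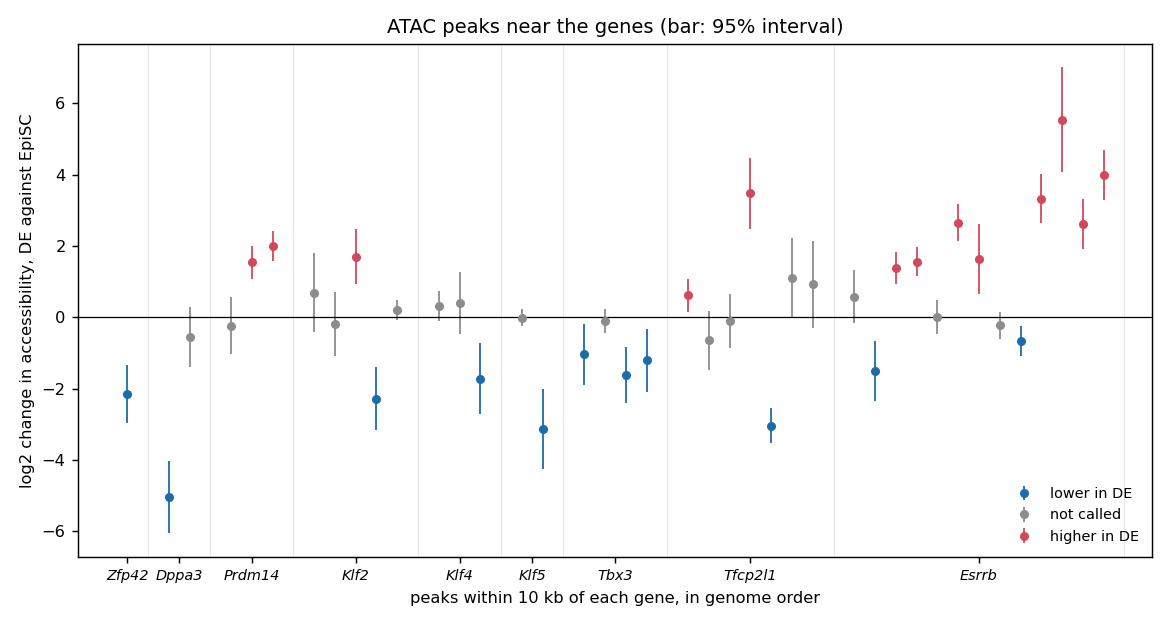
Log2 change in accessibility, B6 DE (n = 4) against B6 EpiSCs (n = 4), of the 40 tested peaks within 10 kb of the naive genes, in genome order within each gene, with 95% intervals. Higher peaks (red) gather at Esrrb and Prdm14, and the lowest value, -5.05, is at Dppa3.

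At Dppa3 and Zfp42, genes with at most 1 count in any B6 library, a peak open in EpiSCs was lower in DE. The peak chr6:122624529-122624777, 1647 bp from the Dppa3 gene, had 8.16, 9.55, 8.78 and 10.9 CPM in EpiSC replicates 1, 4, 44 and 51 and 0, 0.610, 0.257 and 0 CPM in DE replicates 2, 4, 44 and 51. All EpiSC libraries stood far above all DE libraries, with a log2 change of -5.05 (SE 0.52, adjusted p 8.23e-08). The peak chr8:43299865-43300248, inside Zfp42 and 6761 bp from its start, had 14.5, 16.1, 5.37 and 3.90 CPM in EpiSCs and 1.58, 2.44, 1.80 and 3.21 CPM in DE. The groups did not overlap, though EpiSC replicate 51 was close to DE replicate 51, and the log2 change was -2.16 (SE 0.42, adjusted p 0.000153), and -2.36 without DE replicate 51. The Zfp42 promoter shown above held no peak in this table and a peak of 0.845 CPM ± 0.363 (SD, n = 4) in B6 EpiSCs in the other table. In EpiSCs, peaks thus lay at genes with at most 2 counts in all over the B6 libraries.

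Prdm14, also without RNA in B6 cells, had called peaks that rose. The peak chr1:13134356-13134718, 7193 bp above the gene, had 5.85, 6.70, 5.37 and 8.36 CPM in EpiSC replicates 1, 4, 44 and 51 and 31.8, 24.6, 25.9 and 23.3 CPM in DE replicates 2, 4, 44 and 51. Every DE library was above every EpiSC library (log2 change 2.00, SE 0.21, adjusted p 1.39e-07). A second peak nearby also rose, by a log2 value of 1.54, and of the 2 peaks inside the gene one was not called (-0.24, SE 0.40). The other had too few counts to be tested, at 1.79 CPM ± 0.619 in EpiSCs and 0.140 CPM ± 0.163 in DE (SD, n = 4 each), and was lower in every DE library than in any EpiSC library. Prdm14 RNA stayed at 0 counts in all 4 DE libraries, which together allow up to 0.0172 CPM.

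Esrrb had the largest number of called peaks of the 10 genes and no call in RNA. Of the 18 peaks inside this long gene 13 were tested. The peak at the upstream start (chr12:86361095-86361241) had 3.32 CPM ± 1.18 (SD, n = 4) in EpiSCs and 4.83 CPM ± 2.09 (SD, n = 4) in DE, and the peak over the second start, whose promoter is printed above, had 17.2 CPM ± 2.22 and 14.7 CPM ± 3.13 (SD, n = 4 each). Neither start was called (log2 change 0.58, SE 0.38, and -0.23, SE 0.20). The centres of the 8 higher peaks lay 11.4 to 95.1 kb from the nearer start, and the peaks rose by 1.38 to 5.54 on the log2 scale, with no overlap between the groups in any of them, as in 54% of all peaks tested. The peak with the smallest p, chr12:86516605-86516868, had 0.308, 1.93, 1.95 and 0.558 CPM in EpiSC replicates 1, 4, 44 and 51. It had 18.2, 20.6, 15.8 and 20.4 CPM in DE replicates 2, 4, 44 and 51, a log2 change of 3.99 (SE 0.36, adjusted p 1.56e-08). This distal site, near closed in EpiSCs, was open in all DE libraries. The 2 lower peaks had log2 changes of -0.66 and -1.51. Of the 5 peaks with too few counts to be tested, none exceeded a group mean of 2.81 CPM.

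**Figure D3:**
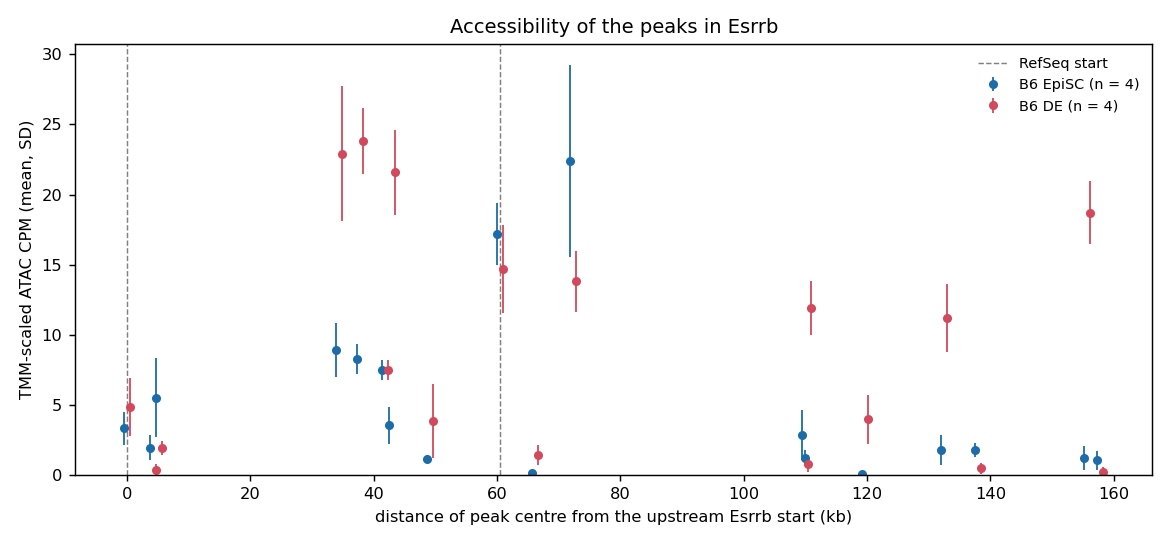
Mean accessibility (TMM-scaled ATAC CPM, SD over n = 4) of the 18 peaks in Esrrb in B6 EpiSCs (blue) and B6 DE (red) against the distance of the peak centre from the upstream start in kb, points of both states being set slightly apart and dashed lines marking the RefSeq starts. Neither start was called, and 8 peaks away from them are higher in DE.

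Tfcp2l1, likewise without a call in RNA, had changes in both directions. The peak chr1:118648054-118648369, inside the gene and 20109 bp from its start, had 26.3, 28.5, 20.3 and 21.6 CPM in EpiSC replicates 1, 4, 44 and 51 and 3.75, 1.98, 3.34 and 2.33 CPM in DE replicates 2, 4, 44 and 51. It was the strongest Tfcp2l1 peak of EpiSCs and fell in all DE libraries (log2 change -3.04, SE 0.25, adjusted p 5.96e-09). Another peak inside the gene, chosen after its values were seen, rose by 3.48 (SE 0.51). The peak over the start, within the promoter printed above, had 6.93, 8.94, 6.83 and 6.97 CPM in EpiSCs and 13.6, 10.2, 9.88 and 11.7 CPM in DE. Its log2 change of 0.62 (SE 0.24, adjusted p 0.0301) was small, and the call was lost in 11 of 15 alternatives, including total library size as the scaling (0.40, adjusted p 0.155).

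The peaks at or nearest the starts or gene ends of the KLF factors and Tbx3 were not called, while other peaks within 10 kb were. The Klf5 peak chr14:99298386-99298781 had 59.6 CPM ± 5.93 in EpiSCs and 58.5 CPM ± 4.78 in DE (SD, n = 4 each; log2 change -0.01, SE 0.12, interval -0.24 to 0.22). The peak chr14:99320839-99320977, 7427 bp from Klf5, fell from 7.08, 5.48, 1.95 and 4.32 CPM in EpiSC replicates 1, 4, 44 and 51 to 0.790, 0.305, 0.770 and 0 CPM in DE replicates 2, 4, 44 and 51 (log2 change -3.14, SE 0.57, adjusted p 7.65e-05). All EpiSC libraries were above all DE libraries at this distant site. At Klf2 the start peak, which contains the promoter above, had 36.6 CPM ± 5.39 and 41.7 CPM ± 7.49 (log2 change 0.19, SE 0.14), while a peak 2557 bp upstream had a log2 change of -2.28 (SE 0.46, adjusted p 0.000249), which was -2.38 without DE replicate 51. At Klf4 the peak 230 bp from the start was not called (0.41, SE 0.45), and the peak chr4:55541816-55541966, 9341 bp away, fell by 1.72 (SE 0.51, adjusted p 0.00688). That Klf4 call was lost with the replicate number as a block (-1.956, adjusted p 0.066). At Tbx3 the peak over the gene end had 31.1 CPM ± 2.10 and 29.1 CPM ± 9.38, and the peak chr5:119685792-119686011, 1068 bp from the other end, fell from 6.06 CPM ± 1.16 to 1.92 CPM ± 0.905 (log2 change -1.62, SE 0.40, adjusted p 0.00145). A weak Tbx3 peak 540 bp from the gene end, chosen after its values were seen, was also lower (3.24 CPM ± 0.798 in EpiSCs, 1.58 CPM ± 0.420 in DE, adjusted p 0.0474).

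Across strains, the question was whether the genetic background of EpiSCs sets the RNA of naive genes. Against B6 EpiSCs, none of the 6 tested genes was called in PWK (26.5% of 14822 genes were called, 12% higher and 14.5% lower) and none in F1 (2.84%, with 1.34% higher and 1.5% lower), by edgeR's quasi-likelihood test. At an unadjusted p under 0.05 the counts were 0 for PWK and 1, Tbx3, for F1, and DESeq2 called 0 and 1. PWK against F1 gave 1 call, Tbx3, against 40% of all genes (20.7% higher, 19.4% lower). These 3 comparisons share libraries and are not independent.

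**Figure D4:**
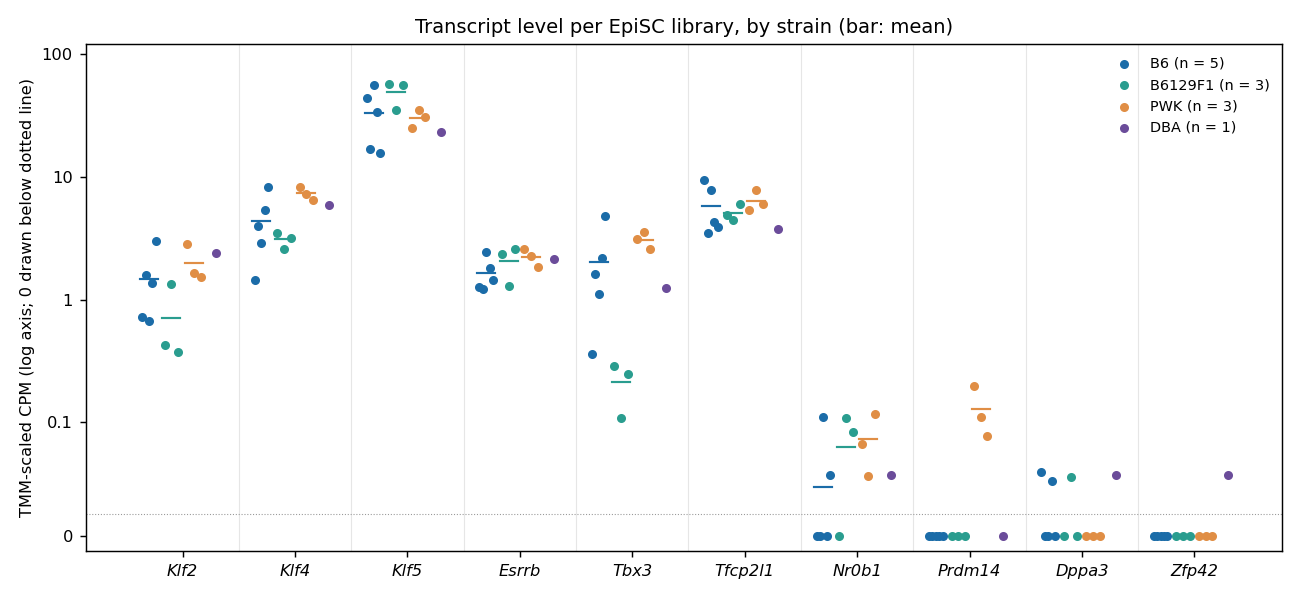
RNA level of each naive gene in TMM-scaled CPM (log axis, with 0 drawn below the dotted line) in B6, F1, PWK and DBA EpiSC libraries, 1 point a library, with bars at means above the dotted line. F1 libraries lie below all others for Tbx3, and PWK libraries alone have Prdm14 reads.

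Of the 6 tested genes, Tbx3 had the largest log2 differences against F1. It had 0.357, 1.61, 1.11, 2.19 and 4.74 CPM in B6 replicates 1, 2, 4, 44 and 51, and 0.286, 0.108 and 0.249 CPM in F1 replicates 4 and 9 and the unnumbered F1 library. PWK BioRep695, PWK BioRep698 and the unnumbered PWK library had 3.09, 3.53 and 2.58 CPM. All F1 libraries were below all B6 and PWK libraries. Groups did not overlap at 15.4% of all genes tested for F1 against B6, and at 63.1% for PWK against F1. The log2 change of Tbx3 from B6 to F1 was -3.25 (SE 0.77). It missed the threshold at an adjusted p of 0.0521 in edgeR's test, with a range of 0.000614 to 0.194 over the alternatives. PWK exceeded F1 by a log2 value of 3.87 (SE 0.82, adjusted p 0.00451), and PWK and B6 overlapped (0.61, SE 0.61, adjusted p 0.487). In order of means Tbx3 ran from F1 (0.214 CPM) over DBA (1.23 CPM, 1 library) and B6 (2.00 CPM) to PWK (3.07 CPM), of which DBA lay within the B6 range and B6 and PWK did not differ beyond their spread.

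By mean, Klf4 was also lowest in F1 and highest in PWK, with DBA above the B6 mean. The B6 libraries, at 1.43 to 8.17 CPM, overlapped both F1 and PWK. Neither contrast with B6 was called in edgeR's test (adjusted p 0.496 for F1 and 0.221 for PWK). Its mean was 3.08 CPM ± 0.466 in F1 (SD, n = 3), 4.35 CPM ± 2.57 in B6 (n = 5) and 7.30 CPM ± 0.955 in PWK (n = 3), with 5.89 CPM in DBA. PWK and F1 did not overlap, as 63.1% of all genes did not, and their log2 difference of 1.29 (SE 0.50) had an adjusted p of 0.0591. Klf2 had 0.710 CPM ± 0.536, 1.46 CPM ± 0.951 and 2.00 CPM ± 0.716 in F1, B6 and PWK, without overlap between PWK and F1 (log2 difference 1.53, SE 0.67, adjusted p 0.0913). Both Klf4 and Klf2 were called in PWK against F1 when the fit held only those groups, with adjusted p-values of 0.00107 and 0.0381. Klf5 ran the other way, with 48.9 CPM ± 12.4 in F1, 33.0 CPM ± 17.2 in B6 and 30.0 CPM ± 4.85 in PWK, and all 3 groups overlapped. In the fit of PWK and F1 alone Klf5 was also called, lower in PWK, with an adjusted p of 0.0324. Esrrb was 2.06 CPM ± 0.680, 1.63 CPM ± 0.503 and 2.21 CPM ± 0.363, and Tfcp2l1 5.09 CPM ± 0.779, 5.76 CPM ± 2.63 and 6.38 CPM ± 1.29 in the same order, with overlap throughout.

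The fibroblast list moved with some of these genes. Its summed CPM over the 12 EpiSC libraries was 83.2, 1170, 449, 1130 and 3050 in B6 replicates 1, 2, 4, 44 and 51, 148 to 227 in F1, 2420 to 3080 in PWK and 1500 in DBA, with no gene of the 12 at 0. Tbx3 was below 0.4 CPM in the 4 libraries where the list was at or below 227 CPM, and within B6 alone the lowest and highest libraries of the list, 1 and 51, were also the lowest and highest of Tbx3 and Klf4. Klf5 and Tfcp2l1 had their lowest B6 values in replicates 51 and 2, where the list was highest. The part of feeder cells in the strain and state comparisons of Tbx3, Klf4 and Klf2 was not tested. None of the 12 fibroblast genes was called between PWK and B6 or F1 and B6, though their median log2 changes were 1.252 and -2.736. The list was not tested for PWK against F1. In DE, 8 of the 12 genes were lower.

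**Figure D5:**
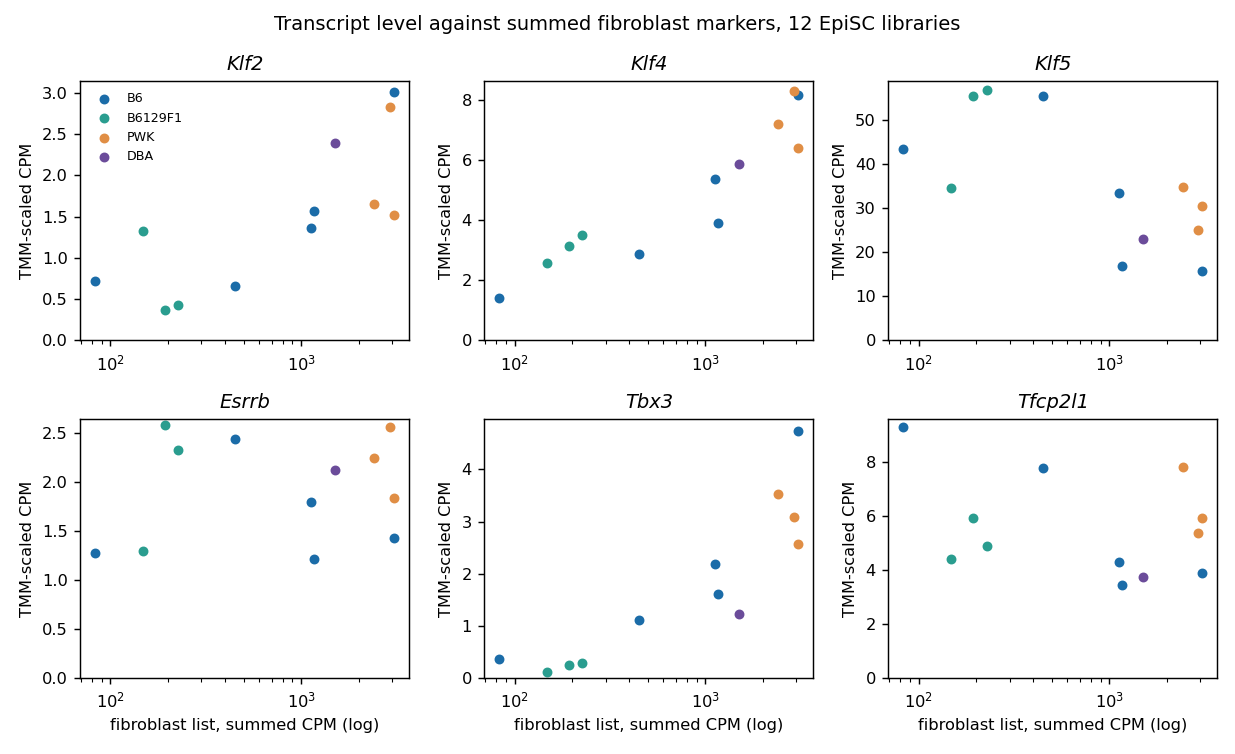
RNA level of 6 naive genes (TMM-scaled CPM) against the summed CPM of 12 fibroblast genes (log axis) in 12 EpiSC libraries, coloured by strain. Tbx3 and Klf4 are low in the F1 libraries and B6 replicate 1, where the list is at or below 227 CPM, and higher where it is 2420 CPM or more.

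Prdm14 RNA was seen in PWK alone. Counts were 6 in PWK BioRep695, 3 in PWK BioRep698 and 2 in the unnumbered library of that strain, and the other 9 EpiSC libraries had 0. The summed 11 counts correspond to a level at least 6.23-fold higher than the floor of 3 counts over the B6 libraries, and at least 3.86-fold higher than that of the F1 libraries. These bounds take the 11 counts as they stand, and their own exact counting interval runs from 0.0694 to 0.249 CPM around 0.139 CPM. Without the filter on low counts the adjusted p of edgeR's test was 0.0370 against B6 and 0.0494 against F1. The level of 0.129 CPM ± 0.0628 (SD, n = 3) is only a few reads a library. Markers of primordial germ cells summed to 88.1 to 109 CPM in PWK and 51.4 to 103 CPM in B6 over both tables, and their part was not tested.

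Related genes differed between strains in both directions. Beside the 26.5% of all genes called between PWK and B6, 2 of 15 tested genes of the wider naive network were higher and 1 was lower. Dppa4 was higher by 1.83 (SE 0.44, log2 scale), and the imprinting factor Zfp57 had a log2 change of -1.03 (SE 0.18). Of the LIF and STAT3 genes 3 of 8 were higher in PWK, with Stat3 at 75.4 against 40.8 CPM, and Pim1 was lower, at 0.729 against 12.6 CPM. Of 24 tested paralogs 2 were higher and 4 lower, among them Esrrg at 0.552 against 0.224 CPM and Klf13 at 59.5 against 115 CPM. In F1, Dppa2 was higher than in B6 (3.67 against 0.831 CPM), the 1 gene called of the 15.

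Few peaks near the naive genes were called between PWK and B6 EpiSCs. Of 56 nearby peaks 45 were tested, and 1 was higher and 0 lower in PWK, against 5.11% of 137667 peaks called in all (1.42% higher, 3.68% lower), and DESeq2 also called 1. The peak chr12:86385939-86386052, inside Esrrb, had 8.03 and 2.34 CPM in PWK BioRep698 and the unnumbered PWK library and 0.6, 0.304, 0.485 and 0.603 CPM in B6 replicates 1, 4, 44 and 51. Both PWK libraries were above all B6 libraries, as groups did not overlap at 27.1% of all peaks (log2 change 3.33, SE 0.67, adjusted p 0.0084), but without PWK BioRep698 the change was 2.07 with an adjusted p of 0.294. The Dppa3 peak that fell in DE was not called here: in B6 it had 9.49 CPM ± 1.64 (SD, n = 4), against 7.66 CPM ± 1.40 (SD, n = 2) for PWK, with an adjusted p of 0.604. The Prdm14 peak at chr1:13134372-13134673 had 12.8 and 9.23 CPM in the PWK libraries and 5.55, 5.67, 5.10 and 8.44 CPM in B6, a log2 change of 0.78 (SE 0.32) that was not called. The Tbx3 peak chr5:119679888-119680076 had 7.69 and 4.32 CPM in PWK and 2.25, 1.72, 1.46 and 2.71 CPM in B6, and its change of 1.499 (SE 0.48) had an adjusted p of 0.0913. The peak inside Nr0b1 stayed below 1 CPM on average in both strains, at 0.698 CPM in B6 and 0.832 CPM in PWK.

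The DBA libraries, 1 for each assay, allow no test. All 6 detected naive genes lay within the range of the B6 libraries, and none was past 2-fold of the B6 mean, as 7.93% of genes were. Of the 46 nearby peaks with a mean of at least 1 CPM, 4 were more than 2-fold higher and 4 more than 2-fold lower than the B6 mean, against 22.4% of all peaks. Of these 46 peaks 27 lay within the B6 range. The Dppa3 peak was among those outside it, at 14.3 CPM in DBA against a B6 range of 7.95 to 11.7 CPM, a log2 ratio of 0.59 to the B6 mean.

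Genes whose RNA pattern was most like that of each naive gene were found by Pearson's r of log2 CPM over the same 12 EpiSC libraries, among 12910 genes with a mean of at least 1 CPM. The libraries differ in strain, in depth and in the fibroblast list, which ran from 83.2 to 3080 CPM. The part of these differences in r was not tested. Tbx3 was most like Cd44 (r = 0.985), Fxyd5 (0.982) and Thy1 (0.98), of which Thy1 is on the fibroblast list. Klf4 was most like Hoxb9 (0.982), Vgll3 (0.981) and Ltbp2 (0.978), and Klf2 like Ccnd1 (0.941), Dok1 (0.939) and Rasa4 (0.934). Klf5 was most like Tspan2 (0.935) and Tctex1d2 (0.935), and Tfcp2l1 like Etl4 (0.95), Ctnnd1 (0.923) and Trp53inp2 (0.917). Esrrb had the weakest likeness, with Clip1 at 0.841, Zfp958 at 0.838 and Nos1ap at 0.836. Among the naive genes themselves Klf4 and Tbx3 were most alike (r = 0.816) and Klf2 and Klf5 most opposed (r = -0.877).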

How the data were processed

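Gene counts and peak counts are raw whole numbers deposited by the authors. Per the submitters' processing notes, fastp, Bowtie2, Salmon, MACS2, featureCounts, DESeq2 and mm10 were used, with no roles or versions given. Of 30 samples 27 are used, and 3 DE samples of PWK were left out. Of the deposited columns, 17 belong to no sample of this series and are not used here. The 3 columns without a replicate number were placed by strain and are called unnumbered.

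Counts were fitted over whole tables with edgeR 4.0.16 in R 4.3.3 (TMM scaling, filterByExpr, robust quasi-likelihood test, Benjamini-Hochberg adjustment over all features), tested on simulated data first. SE is the log2 change divided by the root of F, and intervals are at 95%. The strain fit held B6, PWK and F1 libraries together. Alternatives were RLE or total library size, DESeq2 1.42.0, no low-count filter, a minimum of 10 counts per library, peaks within 2 or 50 kb, fits of only the groups compared, the replicate block and leaving out each library. No pair of replicates agreed within sampling noise (the smallest chi-square was 2.77 per feature). Symbols matched 29270 of 29555 gene identifiers. All 10 genes are named, with the peak nearest the start (or gene end) and that of smallest p, the 3 most similar genes (1 of them is not reported here), and up to 4 called genes of each list with the largest change. The members and lists were chosen with earlier results of these data known.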

Additional observations from a re-analysis of the deposited data

Results flagged for a closer look

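Among 46 groups of 4 or 5 libraries examined for these genes and their named peaks, 5 held 1 library set apart from the rest by a gap larger than chance gives in about 1 group of 20. Tbx3 RNA in DE was 3.67 CPM in replicate 51 and 0.295 to 0.767 CPM in the other DE libraries. Replicate 51 was also the highest of the B6 EpiSC libraries for Tbx3, at 4.68 CPM. The other 4 flagged groups were peaks in B6 EpiSC replicate 4, the deepest ATAC library, which had the highest value in each. The Esrrb start peak had 5.08 CPM there and 2.51 to 2.93 CPM in the others. The Klf4 peak near the start had 3.86 against 2.37 to 2.62 CPM, the Prdm14 peak inside the gene 2.95 against 2.44 to 2.51 CPM, and the Tfcp2l1 start peak 8.94 against 6.83 to 6.97 CPM. The cause was not tested.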

How the results depend on the processing

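In B6 DE against B6 EpiSCs, the count of naive genes called in RNA was 0 in 15 of 16 alternatives and 1 (Nr0b1) without the filter. For PWK against B6 it was 1 without the filter (Prdm14) and 0 to 1 when leaving out libraries in turn, the 1 (Klf4, 1.11, adjusted p 0.0411) arising without B6 replicate 51. For F1 against B6 it was 1 with DESeq2 and 0 to 1 when leaving out libraries, the 1 (Tbx3) arising without B6 replicate 1 or 2. For PWK against F1 it was 2 with total library size, DESeq2 or no filter, 0 with at least 10 counts in every library, which removes Tbx3, 4 with only the groups compared (3 higher, 1 lower) and 1 to 2 when leaving out libraries, with 2 without F1 replicate 9, B6 replicate 1 or B6 replicate 51. The count of called peaks in DE was 7 with at least 10 counts in every library, which leaves 16 peaks to test, 61 within 50 kb and 24 to 26 when leaving out libraries. For PWK peaks it was 0 with at least 10 counts, 3 within 50 kb and 0 to 1 when leaving out libraries. Scaling by total library size gave a median over all peaks of -0.22 in DE and 0.12 in PWK. It gave, among all genes, 2226 higher and 1708 lower in PWK against B6 (1781 and 2142 with TMM), and 3606 and 2180 in PWK against F1 (3067 and 2869).

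Values near 0 that were not called changed sign. When leaving out libraries in turn, Klf2 in DE ranged from -0.15 to 0.57, Esrrb from -0.12 to 0.17 and Tbx3 from -1.83 to 0.053. Klf5 in PWK against B6 ranged from -0.294 to 0.145, Tfcp2l1 in PWK from -0.023 to 0.395 and in F1 from -0.352 to 0.057, and Esrrb in PWK against F1 from -0.091 to 0.336. The Klf2 start peak in DE ranged from -0.083 to 0.223 and was -0.02 with total library size, and the Klf4 peak near the start ranged from -0.001 to 0.709. In PWK the Klf5 peak ranged from -0.198 to 0.056 and was 0.032 with total library size, and the Tfcp2l1 start peak from -0.026 to 0.438. The cause was not tested.

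Replicate numbers 4, 44 and 51, and in RNA also 2, recur in both cell states. Deviations of same-numbered RNA libraries correlated by 0.096, 0.088, 0.182 and 0.237 and those of ATAC by 0.021, -0.005 and 0.048. RNA libraries of different numbers correlated by -0.183 to 0.033, so each of these RNA libraries correlated best with its own number. The main tests did not take the numbers as pairs, and the labels do not say what a shared number means. With the replicate block 0 naive genes were called, and 20 peaks against 21 without the block in the same libraries. Klf2 was -0.096 with the block and -0.048 in those libraries without it, and the Tbx3 end peak was 0.008 in them without it. No paired analysis was possible between strains because the groups share fewer than 2 numbers. Depth limits the genes at 0 to 3 counts, for which a change of a few reads is not detectable. The Nr0b1 ratio of summed counts without each library in turn was chosen after seeing the data and ran from 8.77 to 41.2.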
